A study of Mus musculus with 6 samples.

Results

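The 42 genes described here build and feed the DNA replication fork, and they were measured in ribosome-bound RNA of brain endothelial cells of E14.5 mouse embryos (embryonic day). They were chosen by gene symbol from a list of replication and nucleotide supply genes, and all 42 had a row among the 23827 genes of the deposited table. The libraries came from translating ribosome affinity purification (TRAP), which pulls down tagged ribosomes together with the messenger RNA they carry. In the Axin1 overexpression group, 3 libraries came from embryos with an Axin1 transgene followed by an internal ribosome entry site and LacZ at the R26 locus. The wild-type group held 3 libraries. Axin1 is the scaffold protein of the beta-catenin destruction complex, and the study asked what dampened Wnt/beta-catenin signalling does to this endothelium. Both groups were of the mixed C57BL/6 x 129/Sv strain, and the mothers of both received tamoxifen at E12.5. The sources used here do not give the promoters that drive the recombinase and the ribosome tag, or the number of embryos behind each library. The labels call the libraries of a group biological replicates. The p-values set the difference between the groups against the spread between these libraries.

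DNA replication starts when the origin recognition complex, with Cdc6 and Cdt1, loads the ring-shaped MCM helicase onto chromatin before S phase. Cyclin E with its kinase, and E2F factors that transcribe many replication genes, drive the entry into S phase. There Cdc45, GINS and Mcm10 turn the loaded ring into a moving helicase, primase and the polymerases copy the strands, and the sliding clamp Pcna holds polymerases and the enzymes that finish lagging-strand fragments. Ribonucleotide reductase, thymidylate synthase and thymidine kinase supply the deoxynucleotides. In the embryonic brain both the growing vessels and the neural progenitors around them divide, so transcripts of these genes are not particular to endothelium. In bulk RNA of this kind, fewer cells of a type and less RNA per cell cannot be told apart.

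Library depth, as reads worked out from the deposited values, was 21076922 to 37040176 per library with Axin1 overexpression and 53524184 to 62507510 in wild type. Wild type was on average 1.84 times as deep. Levels are RPKM (reads per kilobase of transcript, scaled to the reads of the library), and the fewest reads behind a value of any of the 42 genes were 211. Axin1 itself had 37.8, 38.1 and 37.4 RPKM in the Axin1 libraries, against 13.6, 14.4 and 15.1 RPKM in wild type, which gave log2 fold change 1.34 ± 0.06 (SE; adjusted p = 2.25e-05 by limma). The groups stood far apart, in the direction the labels give. Of the 12 endothelial markers listed, all 12 were detected, with a summed level of 3352 to 3570 RPKM with Axin1 overexpression and 3822 to 3982 RPKM in wild type. The largest part of that sum was Cldn5, whose values are given below. The column names carry one tag for every Axin1 overexpression library and another for every wild-type library. The sources used here do not say what the tag means. If it marks a batch, its effect and that of genotype cannot be told apart.

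With Axin1 overexpression the replication genes were, as a rule, slightly higher and in no case called lower. Of the 42, 23 rose (54.8%) at a limma adjusted p under 0.05, where 14.4% of the 12493 genes tested rose. None of the 42 fell, where 8.37% of all genes fell, and 29 of the 42 had an unadjusted limma p under 0.05. The rises were small, with log2 fold changes of 0.20 to 0.68 among the 23 called genes. Over all 42 the median log2 fold change was 0.23, against 0.04 over all genes tested, and 40 of 42 values were above 0, against 58.8% of all genes. In 32 of the 42 genes every Axin1 library lay above every wild-type library, which held for 28.0% of all genes tested. The reverse separation was seen in none of the 42 and in 15.9% of all genes. Levels of the 42 genes, averaged over the 6 libraries, ran between 3.20 and 70.8 RPKM with a median of 22.4 RPKM, against a median of 12.4 RPKM over all genes tested.

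The number of rises was lower with any 1 library left out, both among the 42 genes and over all genes. It was 13, 8 and 7 of 42 without Axin1 replicates 1, 2 and 3, where 11.9%, 4.71% and 6.41% of all genes rose, and 12, 16 and 19 without wild-type replicates 1, 2 and 3, where 9.49%, 11.1% and 11.0% rose. Scaling by the median of ratios left 16 rises, rescaling to a shared upper quartile left 12, and correcting the libraries for GC content and length of transcripts left 13. Over all genes the 1800 rises and 1046 falls became 1298 and 1338 with the median of ratios, 1117 and 1466 with the upper quartile, and 983 and 838 with the correction for GC and length. None of the 42 genes was called lower under any alternative. Gins1, Mcm10, Pola2, Pcna, Fen1 and Rrm2 were called higher under all 16 alternatives run. In the authors' deposited table, which rests on DESeq, 8 of the 42 genes (Gins1, Mcm10, Pola2, Pcna, Fen1, Lig1, Rrm1 and Rrm2) were higher with Axin1 overexpression at an adjusted p under 0.05 and none was lower. There 5.52% of the genes tested here were higher and 6.89% lower.

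**Figure D1:**
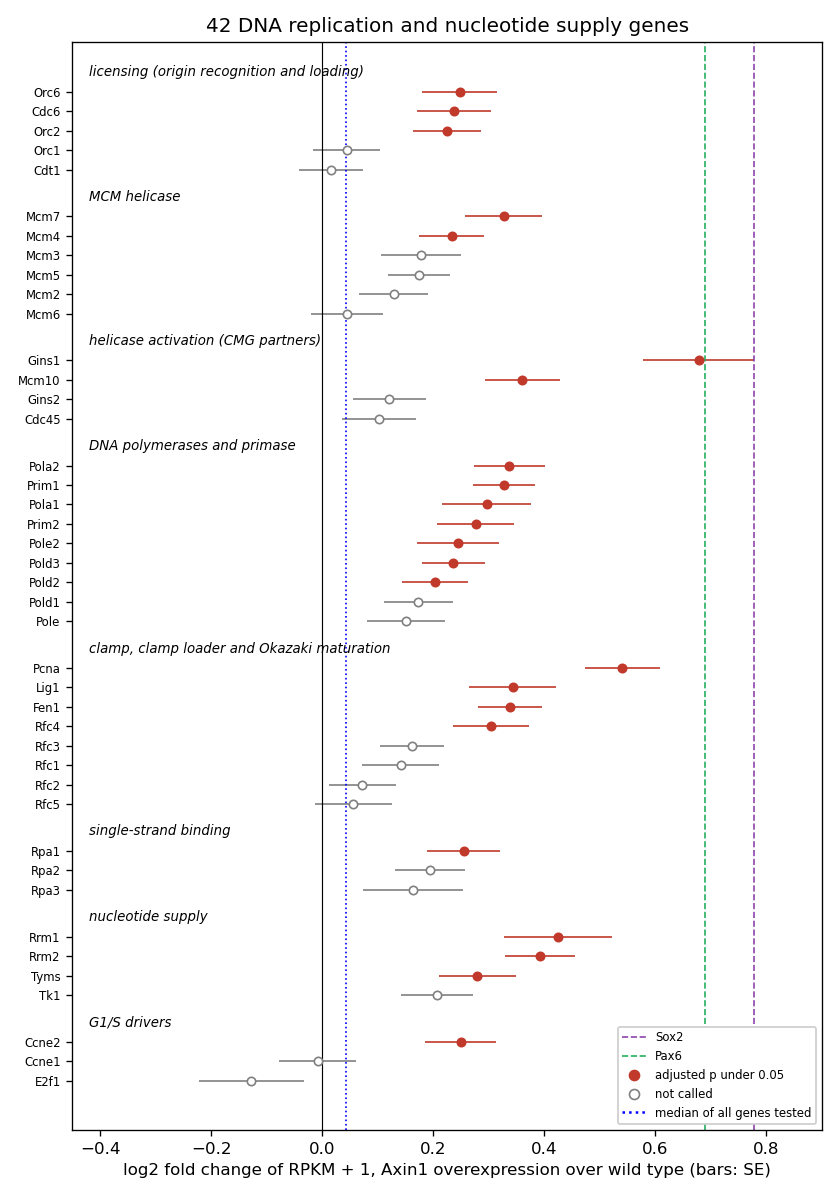
Log2 fold change (RPKM + 1, Axin1 overexpression over wild type, horizontal axis) of each of the 42 genes, grouped by role, with bars of 1 SE; filled points are genes with a limma adjusted p under 0.05. Points lie between -0.13 (E2f1) and 0.68 (Gins1), 40 of 42 to the right of 0 and all to the left of the dashed lines of Pax6 (0.69) and Sox2 (0.78).

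**Figure D2:**
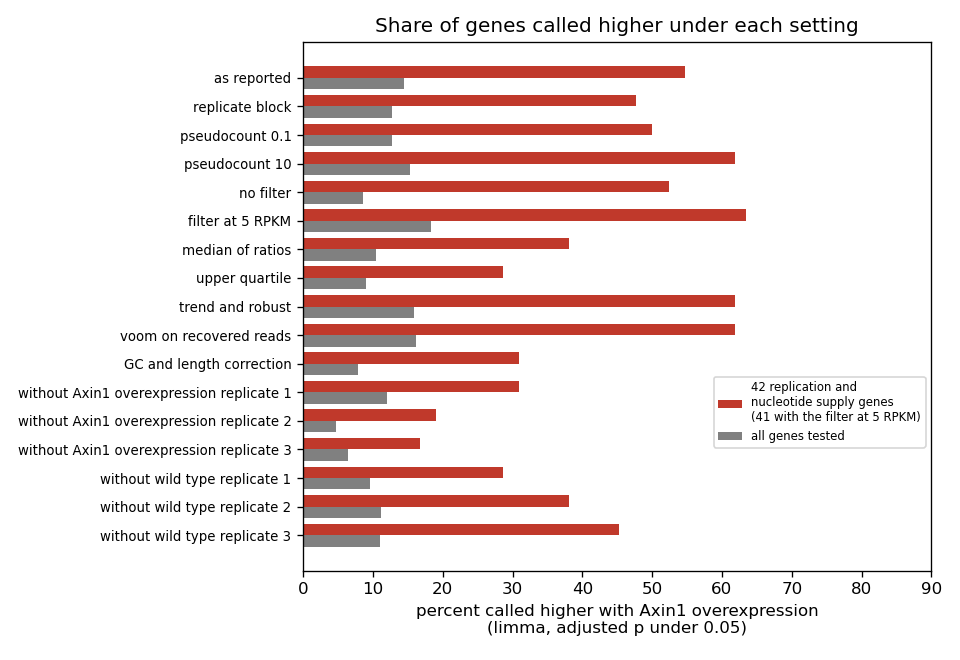
Percent of genes called higher with Axin1 overexpression (horizontal axis, from 0) under each setting, for the replication and nucleotide supply genes and for all genes tested. The share of the 42 genes is 54.8% as reported and 16.7% without Axin1 replicate 3, and it is above the share of all genes under each setting run.

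Promoter sequence was looked up because replication genes are textbook targets of E2F factors and because these genes moved mostly in one direction. RefSeq promoters of build GRCm38.p6, each 250 bases before to 50 bases after an annotated start, were matched by symbol for 35 of the 42 genes. The motifs searched on both strands were the E2F spellings TTTCCCGC, TTTGGCGC and TTTCGCGC and the CCAAT box, and the E2F spellings can overlap each other and a CCAAT box. A gene counted where any of its windows held the motif. An E2F spelling was present for 13 of the 35 genes (37.1%), against 2.12% of the 27025 genes with a promoter in the table. CCAAT was present for 21 of 35 (60%), against 41.1% of all genes, and 7 of the 35 had both. Of the 13 genes with an E2F spelling, 7 held one upstream of the start, and the others held it only after the start. Of these 7, Mcm7 and Rfc3 are not printed here. The following stretches upstream of the start, written 5′ to 3′ on the strand of the gene, show E2F spellings in capitals for licensing and helicase genes and for the catalytic subunit of polymerase alpha.
Mcm6, chr1:128359795-128359824, minus strand: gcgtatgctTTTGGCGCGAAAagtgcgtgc
Mcm5, chr8:75109347-75109376, plus strand: gccaagaacTTTCGCGCCAAAacgtccagc
Orc1, chr4:108579418-108579443, plus strand: cggttagtgGCGCGAAAagttttctc
Cdc6, chr11:98908004-98908029, plus strand: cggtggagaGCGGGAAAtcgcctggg
Pola1, chrX:93632277-93632302, minus strand: catcacaggGCGCCAAAtgcactccc
For Mcm6 and Mcm5, spellings of both strands overlap. Next come the 100 bases before the start of 3 genes that rose under every alternative and hold CCAAT there. Of the other genes that rose under every alternative, Pola2 and Fen1 had neither motif in their windows, and Gins1 had no matched promoter. CCAAT or its complement ATTGG is in capitals, and none of the E2F spellings searched lies in the windows of these 3 genes.
Pcna, chr2:132253181-132253280, minus strand: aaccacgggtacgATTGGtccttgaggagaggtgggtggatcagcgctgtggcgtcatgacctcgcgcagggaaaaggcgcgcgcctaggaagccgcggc
Rrm2, chr12:24708154-24708253, plus strand: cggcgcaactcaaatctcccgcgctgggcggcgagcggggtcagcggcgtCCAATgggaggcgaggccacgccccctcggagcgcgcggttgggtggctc
Mcm10, chr2:5012792-5012891, minus strand: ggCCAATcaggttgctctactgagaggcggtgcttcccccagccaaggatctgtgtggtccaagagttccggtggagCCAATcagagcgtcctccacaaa
Rises were found both among genes with an E2F spelling and among genes with none in their windows. Of the 13 genes with one, 6 rose, with a median log2 fold change of 0.18 and a range of 0.02 to 0.34. Of the 22 matched genes with none in their windows, 13 rose, with a median log2 fold change of 0.24. A match describes letters only, and nothing about the factors follows from it or from its absence.

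Origin recognition and licensing genes were split. Counts of rises by role, here and below, stand beside the 14.4% of all genes tested that rose. In 28.0% of all genes tested every Axin1 library lay above every wild-type library. Of the 5, 3 rose (Orc2, Orc6 and Cdc6), with a median log2 fold change of 0.22 over the 5. Orc6, the smallest subunit of the origin recognition complex, averaged 36.6 ± 1.63 RPKM with Axin1 overexpression and 30.7 ± 1.86 RPKM in wild type (SD, n = 3 each; log2 fold change 0.25, limma adjusted p = 0.034). Orc2, a core subunit of the same complex, averaged 15.2 ± 0.423 RPKM with Axin1 overexpression and 12.9 ± 0.616 RPKM in wild type (SD, n = 3 each; log2 fold change 0.22, limma adjusted p = 0.0332). Cdc6, the ATPase that joins the complex to load the helicase, averaged 5.60 ± 0.310 RPKM with Axin1 overexpression and 4.60 ± 0.291 RPKM in wild type (SD, n = 3 each; log2 fold change 0.24, limma adjusted p = 0.0369). In these 3 genes the libraries of the groups did not overlap. Orc1, the subunit whose ATPase drives loading, had 3.41, 3.07 and 3.32 RPKM in the Axin1 libraries, against 3.07, 3.23 and 3.10 RPKM in wild type (log2 fold change 0.04, limma adjusted p = 0.619). It was the lowest of all 42 in level. Cdt1, which escorts the MCM ring to the origin and is destroyed once S phase starts, had 19.0, 18.8 and 19.0 RPKM in the Axin1 libraries, against 18.9, 19.3 and 18.0 RPKM in wild type (log2 fold change 0.02, limma adjusted p = 0.858). In Orc1 and Cdt1 the groups overlapped, and the sign turned negative for Orc1 (-0.00060 and -0.048) and Cdt1 (-0.027, -0.040 and -0.0099) under some alternatives. Without Axin1 replicate 1, 2 or 3, or without wild-type replicate 1, none of Orc2 (0.19 to 0.24), Orc6 (0.21 to 0.27) and Cdc6 (0.21 to 0.28) was called, and after the GC and length correction their values were 0.08, 0.06 and 0.20.

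The MCM ring, whose 6 subunits form the motor of the replicative helicase, rose in 2 subunits, and its median log2 fold change was 0.18. Mcm7 had 37.9, 37.7 and 38.9 RPKM in the Axin1 libraries, against 31.9, 27.7 and 31.2 RPKM in wild type, which gave log2 fold change 0.33 ± 0.07 (SE; adjusted p = 0.0138 by limma). Mcm4 had 42.8, 41.2 and 43.2 RPKM in the Axin1 libraries, against 35.9, 34.8 and 37.1 RPKM in wild type, which gave log2 fold change 0.23 ± 0.06 (SE; adjusted p = 0.0248 by limma). Both stood apart between the groups, and both calls were lost without Axin1 replicate 2 (0.34 and 0.25) or 3 (0.31 and 0.22), that of Mcm4 also without Axin1 or wild-type replicate 1 (0.23 each) and after the GC and length correction (0.15). Mcm3 had 68.8, 64.7 and 66.8 RPKM in the Axin1 libraries, against 59.4, 54.1 and 63.4 RPKM in wild type (log2 fold change 0.18, limma adjusted p = 0.105). Mcm5 had 51.3, 50.3 and 51.3 RPKM in the Axin1 libraries, against 45.2, 43.9 and 46.0 RPKM in wild type (log2 fold change 0.17, limma adjusted p = 0.0542). Mcm2 had 51.8, 48.8 and 47.1 RPKM in the Axin1 libraries, against 45.2, 43.7 and 45.9 RPKM in wild type (log2 fold change 0.13, limma adjusted p = 0.159). These 3 subunits missed the threshold although no wild-type library reached an Axin1 library. Mcm6 had 71.4, 69.8 and 74.3 RPKM in the Axin1 libraries, against 69.0, 66.3 and 73.9 RPKM in wild type (log2 fold change 0.04, limma adjusted p = 0.649). Its groups overlapped, and its sign turned to -0.00058, -0.014 and -0.019 with the median of ratios, the upper quartile and the GC and length correction.

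Levels per length, here mean RPKM, ranked the MCM subunits in one order with Axin1 overexpression and in wild type: Mcm6, Mcm3, Mcm5, Mcm2, Mcm4 and Mcm7. Neighbours in that order did not overlap between their library values, except Mcm5 and Mcm2, in either group. The highest subunit was 1.88 times the lowest with Axin1 overexpression and 2.30 times in wild type. Within each library, the ratio of Mcm7 to Mcm6 was 0.531, 0.539 and 0.523 with Axin1 overexpression, against 0.462, 0.418 and 0.423 in wild type. Such a ratio within a library does not depend on how libraries are scaled. The pair was chosen after its values were seen, so the ratio carries no test.

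Helicase activation held the largest rise of the 42 genes. Gins1, a subunit of the GINS complex that joins the MCM ring in the active helicase, had 15.2, 16.9 and 15.6 RPKM in the Axin1 libraries, against 10.5, 7.99 and 10.3 RPKM in wild type, which gave log2 fold change 0.68 ± 0.10 (SE; adjusted p = 0.00362 by limma). Mcm10, a scaffold needed to start unwinding, had 8.29, 7.73 and 8.37 RPKM in the Axin1 libraries, against 6.08, 5.72 and 6.55 RPKM in wild type, which gave log2 fold change 0.36 ± 0.07 (SE; adjusted p = 0.00903 by limma). Both genes stood apart between the groups and stayed called under all 16 alternatives, with log2 fold changes of 0.40 and 0.17 at a pseudocount of 10. Gins2, a second subunit of the same complex, had 37.5, 35.5 and 34.0 RPKM in the Axin1 libraries, against 33.1, 34.0 and 31.0 RPKM in wild type (log2 fold change 0.12, limma adjusted p = 0.209). Cdc45, which completes the active helicase, had 23.8, 26.1 and 25.8 RPKM in the Axin1 libraries, against 22.6, 24.7 and 23.0 RPKM in wild type (log2 fold change 0.10, limma adjusted p = 0.287). Neither passed. The groups overlapped in Cdc45 and only just stood apart in Gins2, where the nearest libraries both round to 34.0 RPKM. Within each library the ratio of Gins1 to Gins2 was 0.405, 0.476 and 0.458 with Axin1 overexpression, against 0.317, 0.235 and 0.333 in wild type, a pair set together after its values were seen. Gins1 is listed with 2 transcripts, and the sources used here do not say how reads of several transcripts were joined.

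**Figure D3:**
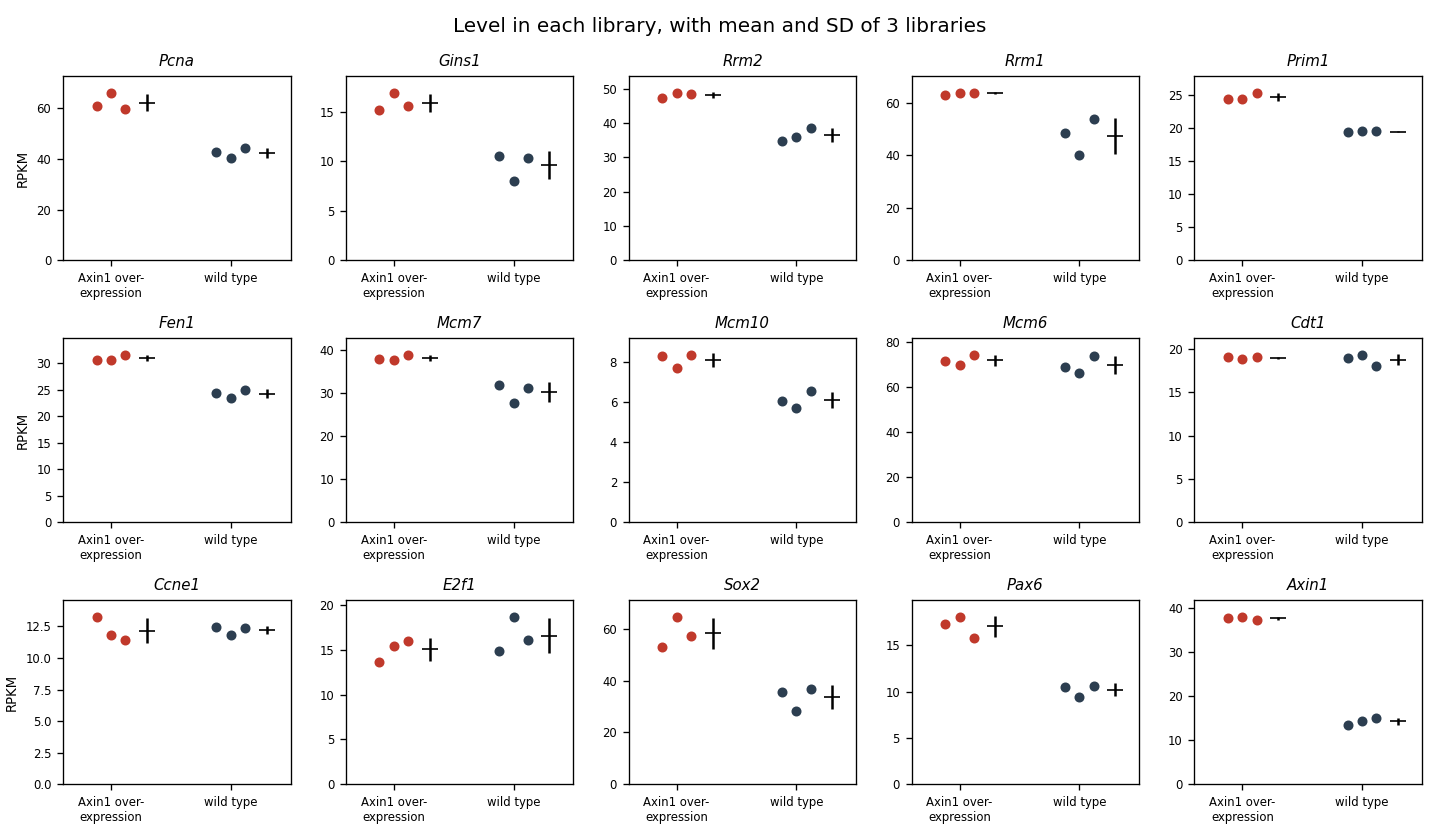
RPKM (vertical axis, from 0) of 12 of the replication genes and of Sox2, Pax6 and Axin1 in each of the 3 Axin1 overexpression libraries (left) and 3 wild-type libraries (right), with mean and SD beside the points. Pcna, Gins1, Rrm2, Rrm1, Prim1, Fen1, Mcm7 and Mcm10 stand apart between the groups, while Mcm6, Cdt1, Ccne1 and E2f1 overlap.

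Polymerase and primase genes were higher throughout. Of the 9, 7 rose, where 14.4% of all genes tested rose, and the median log2 fold change was 0.25. In all 9 every Axin1 library lay above every wild-type library, which held for 28.0% of all genes tested. Pola2, the regulatory subunit of polymerase alpha, had 24.1, 25.1 and 25.4 RPKM in the Axin1 libraries, against 20.4, 18.3 and 19.8 RPKM in wild type, which gave log2 fold change 0.34 ± 0.06 (SE; adjusted p = 0.00932 by limma). Prim1, the catalytic primase subunit that lays the RNA primer, had 24.4, 24.4 and 25.4 RPKM in the Axin1 libraries, against 19.4, 19.5 and 19.6 RPKM in wild type, which gave log2 fold change 0.33 ± 0.06 (SE; adjusted p = 0.00598 by limma). In wild type the Prim1 libraries were nearly equal. Prim2, the large primase subunit, averaged 18.1 ± 1.08 RPKM with Axin1 overexpression and 14.8 ± 0.794 RPKM in wild type (SD, n = 3 each; log2 fold change 0.28, limma adjusted p = 0.0246). Pola1, the catalytic subunit of polymerase alpha, averaged 9.92 ± 0.174 RPKM with Axin1 overexpression and 7.92 ± 0.922 RPKM in wild type (SD, n = 3 each; log2 fold change 0.30, limma adjusted p = 0.0316). The 4 subunits of polymerase alpha-primase thus all rose, with log2 fold changes between 0.28 and 0.34.

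Among lagging-strand polymerase delta subunits, Pold3 had 17.0, 16.8 and 17.1 RPKM in the Axin1 libraries, against 13.7, 14.7 and 14.4 RPKM in wild type, which gave log2 fold change 0.24 ± 0.06 (SE; adjusted p = 0.0216 by limma). Pold2, like Pold3 an accessory subunit, averaged 34.8 ± 1.37 RPKM with Axin1 overexpression and 30.1 ± 0.607 RPKM in wild type (SD, n = 3 each; log2 fold change 0.20, limma adjusted p = 0.0406). Pold1, the catalytic subunit, had 16.1, 15.5 and 14.6 RPKM in the Axin1 libraries, against 13.8, 13.2 and 13.6 RPKM in wild type (log2 fold change 0.17, limma adjusted p = 0.0724) and did not pass. The groups stood apart in each of these subunits. Of the leading-strand polymerase epsilon, the accessory subunit Pole2 averaged 9.95 ± 0.881 RPKM with Axin1 overexpression and 8.23 ± 0.323 RPKM in wild type (SD, n = 3 each; log2 fold change 0.25, limma adjusted p = 0.0455). Pole, its catalytic subunit, had 8.28, 8.02 and 8.07 RPKM in the Axin1 libraries, against 6.66, 7.14 and 7.90 RPKM in wild type (log2 fold change 0.15, limma adjusted p = 0.145) and did not pass. Of their accessory subunits outside the 42 genes, Pole3 rose, as given below, while Pold4 (0.03, limma adjusted p = 0.78) and Pole4 (0.01, limma adjusted p = 0.918) were not called. A difference between subunits was not tested. Many of these calls were lost with 1 library fewer. The design then has fewer degrees of freedom, and the cause of the losses was not tested. Of the 16 alternatives, Pole2 lost its call under 12, Pold2 under 10 and Pola1 under 9. Pold3 lost it under 5, Prim2 under 4, Prim1 under 1 and Pola2 under 0. Pold2 was not called with any 1 of the 6 libraries left out (0.17 to 0.23). With 1 library left out, Pola1 was called only without wild-type replicate 3 (0.37, against 0.23 to 0.31), and Pole2 only without Axin1 replicate 2 (0.31, against 0.20 to 0.27). Prim2 was lost without Axin1 replicates 2 (0.27) and 3 (0.24) or wild-type replicate 2 (0.23) and Pold3 without Axin1 replicates 2 (0.24) and 3 (0.23) or wild-type replicate 1 (0.21). After the GC and length correction, Prim1 (0.15), Prim2 (0.16), Pole2 (0.08), Pola1 (0.22) and Pold3 (0.17) were not called, while Pola2 (0.33), Pold2 (0.22) and the catalytic subunits Pold1 (0.30, limma adjusted p = 0.0126) and Pole (0.25, limma adjusted p = 0.0439) were. Which subunits of these enzymes were called thus depended on that correction.

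At the sliding clamp, Pcna had the lowest p of the 42 genes. It had 60.7, 66.0 and 59.7 RPKM in the Axin1 libraries, against 42.7, 40.2 and 44.3 RPKM in wild type, which gave log2 fold change 0.54 ± 0.07 (SE; adjusted p = 0.00178 by limma). The highest wild-type library, at 44.3 RPKM, lay well under the lowest Axin1 library, at 59.7 RPKM. The mouse annotation names a pair of Pcna pseudogenes, and the sources used here do not say how reads that match several places were counted, so the level of Pcna is uncertain to that extent. Fen1, the nuclease that trims the flaps of lagging-strand fragments, had 30.7, 30.5 and 31.6 RPKM in the Axin1 libraries, against 24.3, 23.4 and 25.0 RPKM in wild type, which gave log2 fold change 0.34 ± 0.06 (SE; adjusted p = 0.00616 by limma). Lig1, the ligase that seals them, had 39.4, 39.0 and 39.2 RPKM in the Axin1 libraries, against 31.7, 27.4 and 33.3 RPKM in wild type, which gave log2 fold change 0.34 ± 0.08 (SE; adjusted p = 0.0179 by limma). The wild-type spread of Lig1 was wide beside the tight Axin1 values, and leaving out Axin1 replicate 2 (0.35) or 3 (0.34) ended its call.

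Of the 5 genes of the clamp loader, replication factor C, which opens the Pcna ring and places it on DNA, 1 rose. That count is close to the 14.4% of all genes tested that rose. Rfc4 had 23.2, 25.6 and 26.2 RPKM in the Axin1 libraries, against 21.1, 19.6 and 19.6 RPKM in wild type, which gave log2 fold change 0.30 ± 0.07 (SE; adjusted p = 0.0171 by limma). Leaving out Axin1 replicate 2 (0.29) or 3 (0.27) ended its call, as did the GC and length correction (0.11). Rfc3 had 28.9, 28.2 and 29.0 RPKM in the Axin1 libraries, against 25.6, 24.7 and 26.4 RPKM in wild type (log2 fold change 0.16, limma adjusted p = 0.0744). Rfc1, the large subunit, had 16.6, 17.8 and 18.6 RPKM in the Axin1 libraries, against 15.8, 15.1 and 16.9 RPKM in wild type (log2 fold change 0.14, limma adjusted p = 0.165). In Rfc3 the groups stood apart without reaching the threshold, and in Rfc1 they overlapped. Rfc2 had 45.2, 47.4 and 45.3 RPKM in the Axin1 libraries, against 43.6, 45.4 and 42.0 RPKM in wild type (log2 fold change 0.07, limma adjusted p = 0.404). Rfc5 had 14.1, 14.9 and 13.2 RPKM in the Axin1 libraries, against 12.8, 14.2 and 13.5 RPKM in wild type (log2 fold change 0.06, limma adjusted p = 0.583). Both overlapped between groups, and Rfc5 turned to -0.0088 after the GC and length correction. The order of mean RPKM was Rfc2, Rfc3, Rfc4, Rfc1 and Rfc5 in both groups, with no overlap between neighbours and a spread from highest to lowest of 3.27 times with Axin1 overexpression and 3.24 times in wild type. Over the 8 clamp, clamp loader and fragment-joining genes together, 4 rose and the median log2 fold change was 0.23.

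**Figure D4:**
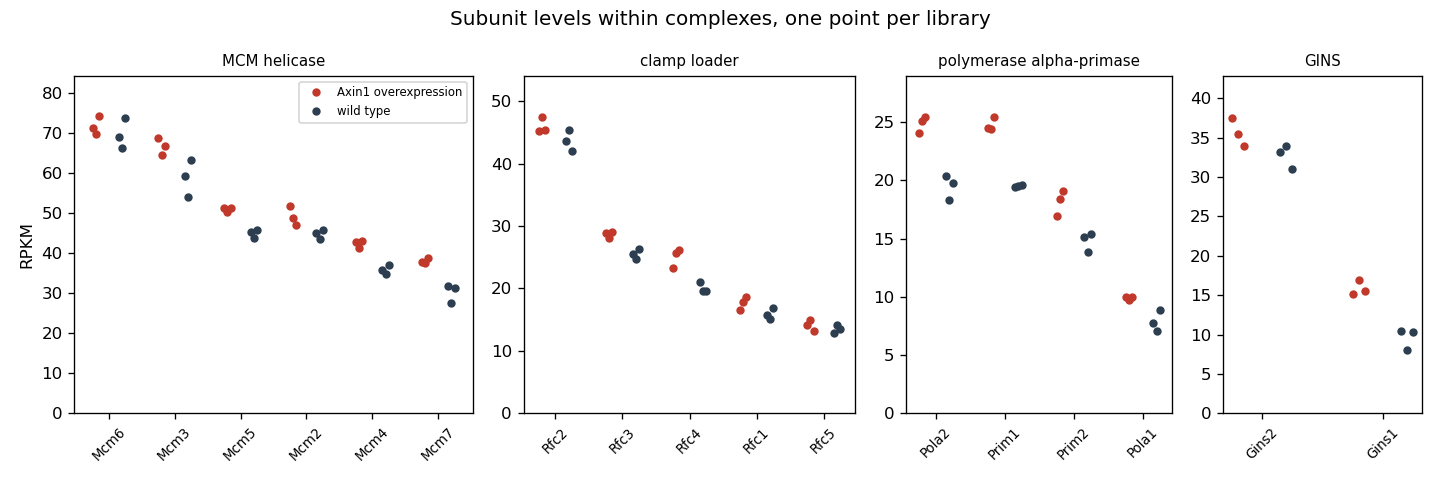
RPKM (vertical axis, from 0) of the subunits of the MCM helicase, the clamp loader, polymerase alpha-primase and GINS, with 1 point per library, Axin1 overexpression left of wild type for each gene. Subunits keep the same order in both groups apart from the near-equal Pola2 and Prim1, and the gap between groups differs from subunit to subunit, with Gins1 apart and Mcm6 overlapping.

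Replication protein A, which coats single-stranded DNA at the fork, rose in 1 of its 3 subunits. Rpa1, the large DNA-binding subunit, averaged 44.4 ± 2.40 RPKM with Axin1 overexpression and 37.1 ± 1.43 RPKM in wild type (SD, n = 3 each; log2 fold change 0.25, limma adjusted p = 0.0266), a call lost without each library but wild-type replicate 2 (0.21 to 0.29). Rpa2 had 32.1, 35.0 and 33.7 RPKM in the Axin1 libraries, against 29.7, 30.1 and 27.8 RPKM in wild type (log2 fold change 0.19, limma adjusted p = 0.0573). Rpa3 had 28.4, 31.5 and 36.2 RPKM in the Axin1 libraries, against 27.4, 29.9 and 27.9 RPKM in wild type (log2 fold change 0.16, limma adjusted p = 0.214). The groups stood apart in Rpa1 and Rpa2 and overlapped in Rpa3, where the Axin1 libraries spread widely and the sign turned to -0.10 after the GC and length correction.

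Nucleotide supply genes had the highest median of the roles, at a log2 fold change of 0.34, and 3 of 4 rose. Rrm1, the large subunit of ribonucleotide reductase, had 63.1, 63.8 and 63.7 RPKM in the Axin1 libraries, against 48.3, 40.3 and 53.7 RPKM in wild type, which gave log2 fold change 0.42 ± 0.10 (SE; adjusted p = 0.0183 by limma). Rrm2, the small subunit that is made in S phase, had 47.2, 48.8 and 48.4 RPKM in the Axin1 libraries, against 34.8, 36.0 and 38.7 RPKM in wild type, which gave log2 fold change 0.39 ± 0.06 (SE; adjusted p = 0.00488 by limma). Both stood apart between the groups, Rrm1 with a wide spread in wild type. The ratio of Rrm1 to Rrm2 within a library was 1.34, 1.31 and 1.32 with Axin1 overexpression, against 1.39, 1.12 and 1.39 in wild type, with overlap. Tyms, thymidylate synthase, averaged 16.2 ± 0.503 RPKM with Axin1 overexpression and 13.2 ± 1.02 RPKM in wild type (SD, n = 3 each; log2 fold change 0.28, limma adjusted p = 0.0239), and the annotation names a transcribed pseudogene of it. Tk1, the thymidine kinase of the salvage route, had 23.0, 22.9 and 25.7 RPKM in the Axin1 libraries, against 20.7, 20.6 and 20.2 RPKM in wild type (log2 fold change 0.21, limma adjusted p = 0.0523) and narrowly missed the threshold although the groups did not overlap. The call of Rrm1 was lost without Axin1 replicate 2 or 3 (0.42 each) and that of Tyms without any library but wild-type replicate 3 (0.25 to 0.30).

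The drivers of S-phase entry did not move together. Of the 3, 1 rose and the median log2 fold change was -0.01. Ccne2, cyclin E2, averaged 11.4 ± 0.346 RPKM with Axin1 overexpression and 9.43 ± 0.592 RPKM in wild type (SD, n = 3 each; log2 fold change 0.25, limma adjusted p = 0.0276), a call lost without each library but wild-type replicate 3 (0.22 to 0.27) and at 0.04 after the GC and length correction. Ccne1, cyclin E1, had 13.3, 11.8 and 11.4 RPKM in the Axin1 libraries, against 12.4, 11.8 and 12.3 RPKM in wild type (log2 fold change -0.01, limma adjusted p = 0.943). E2f1, an activating E2F factor, had 13.6, 15.5 and 16.0 RPKM in the Axin1 libraries, against 14.9, 18.7 and 16.1 RPKM in wild type (log2 fold change -0.13, limma adjusted p = 0.346). Both overlapped between the groups. Ccne1 changed sign to 0.010, 0.0098, 0.034 and 0.0042 under 4 alternatives. E2f1 and Ccne1 were the 2 of 42 genes with a value below 0.

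Other genes of the same pathways, taken from lists that were drawn up with earlier results of these data known, also had rises and no falls. Of 33 other origin and fork genes 9 rose and none fell, with a median log2 fold change of 0.17. The lowest p there belonged to Orc4, another origin recognition subunit (0.33, limma adjusted p = 0.0121), to the topoisomerase Top1 (0.57, limma adjusted p = 0.0149) and to the polymerase epsilon subunit Pole3 (0.35, limma adjusted p = 0.0214). Of 35 other nucleotide synthesis and salvage genes 13 rose and none fell, with a median of 0.18, led by the mitochondrial folate enzyme Mthfd2 (0.46, limma adjusted p = 0.00235), the phosphoribosyl pyrophosphate synthetase Prps2 (0.62, limma adjusted p = 0.00299) and the dUTPase Dut (0.39, limma adjusted p = 0.00609). Of 12 genes that rebuild chromatin behind the fork 4 rose and none fell, with a median of 0.19, led by the histone chaperone Nasp (0.47, limma adjusted p = 0.0066), the histone mRNA binding protein Slbp (0.36, limma adjusted p = 0.00745) and the chromatin remodeller Hells (0.29, limma adjusted p = 0.0296). Each share stands against 14.4% of all genes that rose.

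Of 25 other E2F, RB and S-phase kinase genes 6 rose and none fell, with a median of 0.13, led by the E2F repressor Rb1 (0.45, limma adjusted p = 0.00598), the ubiquitin ligase subunit Skp2 (0.27, limma adjusted p = 0.0183) and cyclin A2, Ccna2 (0.29, limma adjusted p = 0.0212). Of 25 mitosis genes 23 rose and none fell, with a median of 0.33, led by cyclin B1, Ccnb1 (0.44, limma adjusted p = 0.00465), the spindle protein Tpx2 (0.50, limma adjusted p = 0.00547) and the kinetochore protein Nuf2 (0.44, limma adjusted p = 0.00565). The 23 of 25 mitosis genes stand beside 23 of 42 replication genes, and the difference in share was not tested. Without Axin1 replicate 2 the rises in these 5 lists, in the order given, numbered 1, 3, 2, 1 and 9, where 4.71% of all genes rose, so that 1 of 33 origin and fork genes and 1 of 25 E2F, RB and S-phase kinase genes lay below the share of all genes. Without Axin1 replicate 3 they numbered 3, 3, 2, 2 and 11, where 6.41% of all genes rose. With the upper quartile they numbered 3, 4, 2, 3 and 12, where 8.94% of all genes rose, a share that 3 of 33 origin and fork genes and 4 of 35 nucleotide genes hardly passed. The mitosis genes that rose numbered 15 without Axin1 replicate 1, 13 without wild-type replicate 1 and 15 without wild-type replicate 2, where 11.9%, 9.49% and 11.1% of all genes rose.

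**Figure D5:**
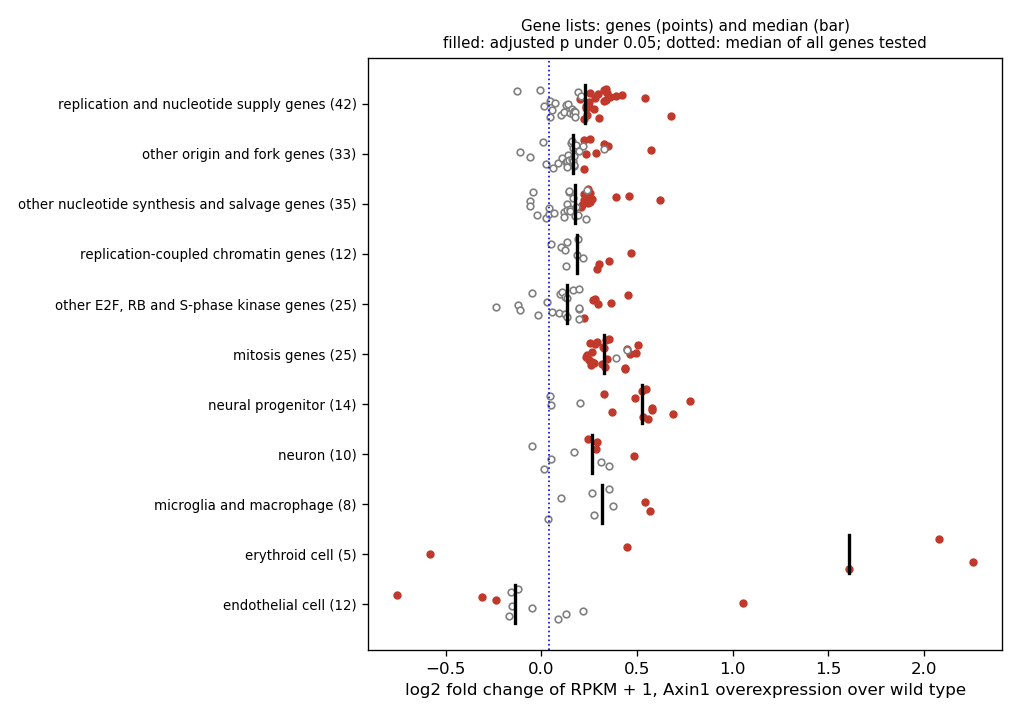
Log2 fold change (RPKM + 1, Axin1 overexpression over wild type, horizontal axis) of each tested gene of the 42 replication and nucleotide supply genes, of the 5 related lists and of 5 cell type marker lists, with black bars at medians and filled points for a limma adjusted p under 0.05. The median is 0.23 for the replication genes, 0.33 for mitosis genes and 0.53 for neural progenitor markers, and the dotted line marks 0.04, the median of all genes.

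Transcripts of neural progenitors, the dividing cells around the vessels, were present in the same libraries and were also higher with Axin1 overexpression. Sox2, a transcription factor of neural progenitors, had 52.9, 64.6 and 57.0 RPKM in the Axin1 libraries, against 35.7, 28.4 and 36.7 RPKM in wild type, which gave log2 fold change 0.78 ± 0.11 (SE; adjusted p = 0.0031 by limma). Pax6, a cortical progenitor factor, had 17.2, 18.1 and 15.8 RPKM in the Axin1 libraries, against 10.6, 9.38 and 10.6 RPKM in wild type, which gave log2 fold change 0.69 ± 0.07 (SE; adjusted p = 0.00085 by limma). In both, every Axin1 library lay above every wild-type library, and both stayed called under all 16 alternatives. The highest log2 fold change of the 42 replication genes, 0.68 ± 0.10 (SE) for Gins1, lay within the error of that of Pax6. Their order was not stable, as Gins1 had 0.74 and Pax6 0.71 without wild-type replicate 1, and it was not tested. Of 14 neural progenitor markers 11 rose and none fell, where 14.4% of all genes rose and 8.37% fell, and their median log2 fold change was 0.53. Their summed level was 819 to 897 RPKM with Axin1 overexpression and 602 to 740 RPKM in wild type, and none of them was at 0. The largest part of it was Nes, at 487, 419 and 388 RPKM with Axin1 overexpression and 411, 353 and 356 RPKM in wild type. Nes overlapped between the groups and was not called (limma adjusted p = 0.156). Which cells the Nes transcripts came from was not tested, so the sum need not be of progenitors alone.

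Relative to the progenitor factors of the same library, the replication genes were lower with Axin1 overexpression. The 42 genes summed to 1204, 1208 and 1220 RPKM with Axin1 overexpression, against 1029, 1001 and 1056 RPKM in wild type. The sum divided by Sox2 was 22.8, 18.7 and 21.4 with Axin1 overexpression, against 28.8, 35.2 and 28.7 in wild type. Divided by Pax6 it was 69.8, 66.9 and 77.2 with Axin1 overexpression, against 97.5, 107 and 99.3 in wild type. Both ratios were lower in every Axin1 library than in every wild-type library. Lower ratios follow from the fold changes above, as 0 of the 42 genes had one at or above that of Sox2 or Pax6. They are thus no separate result. The same ratios were not taken over all genes, whose median log2 fold change was 0.04. For Pcna the ratio to Sox2 was 1.15, 1.02 and 1.05 with Axin1 overexpression, against 1.20, 1.41 and 1.21 in wild type. Whether carried-over progenitor RNA has a part in the rise of the replication genes was not tested.

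Among markers of 3 other cell types, the summed level stood apart between the groups for erythroid cells and overlapped for neurons and for microglia and macrophages. The counts below stand against 14.4% of all genes that rose and 8.37% that fell. Of 10 neuron markers 4 rose and none fell, at 641 to 663 RPKM in sum with Axin1 overexpression and 517 to 664 RPKM in wild type. Of 10 erythroid markers 5 were tested, of which 4 rose and 1 fell, with Hba-a1 listed at 0 in every library. The 10 summed to 321 to 643 RPKM with Axin1 overexpression and 98.1 to 126 RPKM in wild type. Most of that sum was Hbb-y, at 377, 550 and 279 RPKM with Axin1 overexpression and 105, 82.0 and 86.8 RPKM in wild type. Of 9 microglia and macrophage markers 8 were tested and 2 rose, at 37.7 to 64.8 RPKM with Axin1 overexpression and 35.5 to 38.4 RPKM in wild type. The erythroid and progenitor sums, like the sum over the 42 genes, did not overlap between the groups. The same held for the sum of each related list above, so it was not particular to these. Mitosis genes, for example, summed to 950 to 973 RPKM with Axin1 overexpression and 718 to 808 RPKM in wild type.

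Among markers of the vessel itself and of its mural and meningeal neighbours, more fell than rose, again beside 8.37% and 14.4% of all genes. Of 12 endothelial markers 3 fell (Cldn5, Tie1 and Esam) and 1 rose (Emcn), and their sums, given above, did not overlap. The largest part of that sum was Cldn5, at 693, 737 and 814 RPKM with Axin1 overexpression and 1350, 1291 and 1147 RPKM in wild type. Emcn went the other way, at 287, 282 and 282 RPKM against 134, 141 and 134 RPKM in wild type. The separation of the sums therefore does not describe the endothelial markers as a set. Of 11 pericyte and smooth muscle markers 8 were tested and 3 fell, at 30.5 to 43.3 RPKM with Axin1 overexpression and 42.5 to 50.3 RPKM in wild type. Of 10 meningeal fibroblast markers 3 fell and none rose, at 131 to 160 RPKM with Axin1 overexpression and 164 to 227 RPKM in wild type. The part of any of these cell types in the values of the replication genes was not tested.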

How the data were processed

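Polyadenylated ribosome-bound RNA of 6 libraries was sequenced after TRAP with the TruSeq RNA v2 kit, per the labels' protocols; this kit does not mark strand, so overlapping antisense reads cannot be told apart. Bowtie, DESeq and mm9 are named in the submitters' processing notes, without versions. How reads were counted over several transcripts or matches is something the sources used here do not state. For every gene the authors deposited RPKM by library. No header names the unit, which was settled from the transcript lengths the values imply. The authors also deposited a signal, the mean normalized count of each group, with a fold ratio and raw and adjusted p-values, per the file headers. Genes with values in a single group showed which mean belonged to which group. The deposited fold, wild type over Axin1 overexpression, was not used.

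Reads per library were worked out from RPKM and those group means, which gave numbers whole within 0.05 reads for 99.99% of values of single-transcript genes, 23.95% where a gene had several transcripts, and 83.6% overall. The 12 members with several transcripts therefore have approximate reads.

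Values were taken as log2(RPKM + 1) and fitted by genotype alone in limma 3.58.1 (R 4.3.3), over 12493 genes averaging 1 RPKM or more. All 42 members passed this filter. Fold changes are on that scale, where changes of low genes come out smaller. Adjusted p is two-sided, by Benjamini-Hochberg over all genes tested, and calls are at 0.05. The limma step was tested on simulated data. Tables and plots were made in Python 3.11.15 (pandas 2.3.3, numpy 2.4.6, matplotlib 3.10.9).

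Alternatives were the replicate number as a block, pseudocounts of 0.1 and 10, no filter, a filter at 5 RPKM, 2 other scalings, trend and robust variances, voom on recovered reads, a loess correction for GC content and length (span 0.5; 99.7% of genes had both) and leaving out each library. The members and lists were chosen with earlier results of these data known. Values in every library are given for the 12 members with the lowest p, members not called, the MCM subunits, Sox2, Pax6 and Axin1, and of each related list the 3 genes with the lowest p are named. Other genes named were chosen after their values were seen. The reference (GRCm38) is another build than mm9 and gave lengths, GC content and the RefSeq promoters, whose coordinates are of GRCm38.p6. Protein motifs were not searched.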

Additional observations from a re-analysis of the deposited data

How the results depend on the processing

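The direction of the median held under all 16 alternatives, and 0 of the 42 genes fell under any. The counts of rises did not hold as well. The median log2 fold change of the 42 genes was 0.15 at a pseudocount of 10, 0.17 with the upper quartile and 0.17 with the GC and length correction, against 0.23 as reported, and 0.21 to 0.24 with 1 library left out. With the upper quartile 12 of the 42 genes rose, of 1117 over all genes, and with the GC and length correction 13, of 983. By role, with the median of ratios, 0 licensing, 4 polymerase and 0 single-strand binding genes rose, where 10.4% of all genes did. With the upper quartile 0 licensing, 1 MCM, 3 polymerase, 0 single-strand binding and 0 S-phase entry genes rose, where 8.94% of all genes did. With the GC and length correction 0 licensing, 1 MCM, 4 polymerase and 0 S-phase entry genes rose, where 7.89% of all genes did. Single-strand binding genes that rose numbered 2 with a pseudocount of 10, a filter at 5 RPKM, trend and robust variances or voom. In these runs 15.3%, 18.4%, 15.8% and 16.2% of all genes rose.

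In the related lists, with the median of ratios, 4 origin and fork, 7 nucleotide, 2 chromatin, 3 E2F and RB and 15 mitosis genes rose, where 10.4% of all genes rose. With the upper quartile these were 3, 4, 2, 3 and 12, where 8.94% did. With the GC and length correction 4 nucleotide, 3 E2F and RB and 11 mitosis genes rose, where 7.89% of all genes did. A pseudocount of 0.1 left 3 E2F and RB genes, where 12.8% of all genes rose, and no filter left 15 mitosis genes, where 8.61% did.

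With 1 library left out in turn, rises ranged over 589 to 1492 and falls over 465 to 933 for all genes, and rises over 7 to 19 for the 42 genes. By role they ranged over 0 to 2 for licensing, 0 to 2 for MCM, 2 to 5 for polymerase, 2 to 4 for clamp, 0 to 1 for single-strand binding, 1 to 3 for nucleotide supply and 0 to 1 for S-phase entry genes. In the related lists they ranged over 1 to 10, 3 to 10, 2 to 4, 1 to 6 and 9 to 21. The share of all genes that rose ranged over 4.71% to 11.9% in the same runs. A design with fewer libraries has fewer degrees of freedom. The cause of these changes, and of those under the other alternatives, was not tested.

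Signs turned for Mcm6 (-0.00058 with the median of ratios, -0.014 with the upper quartile, -0.019 with the GC and length correction), Cdt1 (-0.027 and -0.040 with these 2 scalings, and -0.0099 to 0.037 with 1 library left out), Orc1 (-0.00060 with the upper quartile, -0.048 with the GC and length correction), and, with that correction, Rpa3 (-0.10) and Rfc5 (-0.0088). Ccne1 turned to 0.010 with voom and ranged over -0.068 to 0.034 with 1 library left out, being above 0 without Axin1 replicate 2 or 3 or wild-type replicate 1.

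Same-numbered libraries deviated together only weakly (r = 0.08, 0.13 and 0.06), so the numbers were not taken as pairs, although each library correlated best with its own number. With the replicate number as a block, 20 of the 42 genes and 1591 of all genes rose, and 1 licensing gene did. Depth limits little here, as no member value rests on fewer than 211 reads, but a group of 3 libraries does.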

Other observations

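Within wild type, replicate 2 had the lowest Sox2 (28.4 RPKM) and Pax6 (9.38 RPKM) and held the lowest wild-type value of 23 of the 42 replication genes, against 13 in replicate 1 and 6 in replicate 3. Wild-type replicate 2 also held the highest wild-type value of 12 genes, against 7 in replicate 1 and 23 in replicate 3. Among the Axin1 overexpression libraries, replicate 2 had the highest Sox2 (64.6 RPKM) and Pax6 (18.1 RPKM). It held the highest value of 10 of the 42 genes and the lowest of 22. Replicate 3 held the highest value of 20 of them. With 3 libraries a group these counts describe the libraries, and no test was made. The same counts were not made over all genes, so a shift of a whole library cannot be told apart.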
